A study of Mus musculus with 11 samples.

Results

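Recombination is the step of meiosis in which homologous chromosomes are cut and rejoined. PRDM9 marks the hotspots with histone methylation, SPO11 cuts the DNA there, the recombinase DMC1 pairs the resected ends with the homolog, and MEIOB holds single-stranded DNA alongside the RPA proteins. A subset of the joined intermediates is stabilized by the helicase HFM1 and the MSH4-MSH5 heterodimer, and MLH3 acts in resolving them into crossovers. In mouse testis these events take place in leptotene, zygotene and pachytene spermatocytes. The transcription factor RFX2 is known for the later steps at which round spermatids begin to form a flagellum. The study also detected RFX2 protein in pachytene spermatocytes.

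Testis RNA was sequenced from 5 wild type and 6 Rfx2-/- mice, all at postnatal day 21 (P21) and all of a mixed C57BL/6, 129/Sv and FVB/N background. The Rfx2-/- mice carry no exon 7 in either Rfx2 allele, after recombination between flanking loxP sites by an ACTB-cre transgene active in all tissues. The study used littermates of the same age where it could, and its first line kept a neomycin cassette, which the labels do not give for these mice. The 8 genes described here, Prdm9, Spo11, Dmc1, Meiob, Hfm1, Msh4, Msh5 and Mlh3, were found by their GENCODE symbols among 23074 genes with a count, and all 8 were among the 15745 genes tested. The question was whether loss of RFX2 goes with a change in any of these meiotic transcripts at an age when the first wave of germ cells is still advancing.

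None of the 8 genes was called lower or higher in Rfx2-/- testis by edgeR's quasi-likelihood test (adjusted p up to 0.01, Benjamini-Hochberg over all tested genes), against 1.94% of all tested genes called lower and 0.73% called higher. Before adjustment, p was at most 0.05 for 4 of the 8, Spo11, Meiob, Msh4 and Mlh3, all with higher means in Rfx2-/- testis, where 18.1% of all tested genes were higher at that level and 23.7% lower. DESeq2 and limma also called none of the 8 at an adjusted p up to 0.01. The adjusted p from DESeq2 was 0.01015 for Mlh3, just above that limit, 0.0185 for Spo11, 0.0189 for Meiob and 0.0262 for Msh4. The lowest adjusted p from limma was 0.0456, for Spo11. The mice differed in the level of round spermatid markers, and each gene was also fitted against that level. Prdm9 and Dmc1 fell as round spermatid markers rose, and no member rose with them, compared with 15.6% and 20.2% of all tested genes that fell and rose. The slopes of the other members did not pass.

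Total counts lay between 22232097 and 29769483 reads per mouse, and the 8 genes had between 342 reads (Prdm9 in Rfx2-/- replicate 7) and 6964 reads (Hfm1 in wild type replicate 3), so counting error was at most 5.41% of any value. Levels are given in CPM, the counts of a gene per 1000000 counts of the scaled library. Rfx2 itself had 191 to 472 CPM in wild type and 282 to 324 CPM in Rfx2-/- testis, counted over the whole gene, which does not show whether exon 7 is covered. A round spermatid score, the mean log2 CPM of 8 acrosome and spermatid genes, ran from 0.72 in wild type replicate 5 to 6.11 in wild type replicate 1 and from 2.85 to 6.58 in Rfx2-/- mice (exact permutation p = 0.219, two-sided). The pachytene score, from 7 spermatocyte genes that were all tested, was higher in every Rfx2-/- mouse (9.12 to 9.35) than in any wild type mouse (7.80 to 9.06), a difference of 0.70 on the log2 scale (exact permutation p = 0.00216, the smallest these group sizes allow, adjusted over 9 marker lists to 0.0195). Wild type replicates 3 and 5 had the lowest pachytene scores, 7.98 and 7.80, and replicates 1, 2 and 4 had 9.06, 8.90 and 9.02. The difference without both of replicates 3 and 5 was not computed. The summed level of these 7 genes was 3612 to 7745 CPM in wild type and 7187 to 9059 CPM in Rfx2-/- mice. The early meiotic prophase score, from 10 genes, differed by 0.03 (exact permutation p = 0.444). How far these 10 genes are confined to early prophase was not tested. The Sertoli cell score was different by -0.32 in Rfx2-/- mice (exact permutation p = 0.026, adjusted to 0.117) and the macrophage score by -0.42 (exact permutation p = 0.0454, adjusted to 0.136), and the part of these somatic markers in the results was not tested. The Sertoli difference passed 0.05 without wild type replicate 1 (adjusted p = 0.0214, exact permutation). The macrophage difference passed it without wild type replicate 4 (-0.53, adjusted p = 0.0429, exact permutation). Wild type replicate 1 also held 401 CPM of epididymis markers, against 4.13 to 69.3 CPM in the Rfx2-/- mice, and the genotype calls and the counts of slopes below were repeated without it. Epididymis scores were 6.02, 3.15, 0.60, 2.60 and -0.73 in wild type replicates 1 to 5 and -2.28 to 2.34 in the Rfx2-/- mice. In whole testis, fewer cells of a type and less RNA per cell cannot be told apart.

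Prdm9 (ENSMUSG00000051977, chromosome 17 from 15543079 to 15564354 of GRCm38, minus strand, 12 merged exons) encodes the zinc finger methyltransferase that chooses hotspots. Its level in wild type testis was 16.2, 18.5, 40.1, 24.9 and 36.3 CPM in replicates 1 to 5. The Rfx2-/- mice ranged from 14.1 through a median of 17.4 to 23.9 CPM. The 2 wild type mice with the lowest spermatid scores, replicates 3 and 5, were the highest of all 11 mice, and the other 3 lay within or just above the Rfx2-/- range. The means were 27.2 ± 10.6 CPM (SD, n = 5) and 18.7 ± 4.27 CPM (SD, n = 6), a log2 fold change of -0.55 ± 0.25 (SE) with a 95% interval of -1.10 to 0.01 and an adjusted p of 0.123 from edgeR. Leaving out both of replicates 3 and 5, a choice made once the data had been seen, gave a log2 fold change of -0.08. Limma gave -0.235. The difference was larger with total counts (-0.745) and without wild type replicate 1 (-0.684, adjusted p = 0.0411 from edgeR).

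Spo11 (ENSMUSG00000005883, chromosome 2 from 172977700 to 172993576, plus strand, 13 merged exons), the topoisomerase-like enzyme that makes the double-strand breaks, had the opposite arrangement. Wild type replicates 1 to 5 gave 96.5, 89.8, 64.2, 102 and 58.9 CPM, and the lowest, median and highest of the 6 Rfx2-/- mice were 102, 108 and 118 CPM. The genotypes did not overlap, by a narrow margin between wild type replicate 4 and Rfx2-/- replicate 11, and of all tested genes 6.5% were arranged in this way and 5.2% with every Rfx2-/- mouse lower. From means of 82.3 ± 19.6 CPM (SD, n = 5) and 109 ± 5.16 CPM (SD, n = 6), edgeR gave a log2 fold change of 0.40 ± 0.14 (SE), a 95% interval of 0.10 to 0.71 and an adjusted p of 0.0622. The same 2 wild type mice, replicates 3 and 5, were the lowest for Spo11, and without both the log2 fold change was 0.19 (adjusted p = 0.0601 from edgeR).

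Dmc1 (ENSMUSG00000022429, chromosome 15 from 79561497 to 79605109, minus strand, 14 merged exons) resembled Prdm9. Its wild type levels were 41.8, 54.4, 85.7, 76.1 and 86.6 CPM in replicates 1 to 5, and those of the Rfx2-/- mice ran from 43.4 through a median of 55.7 to 64.5 CPM. Wild type replicate 1 was the lowest of all mice and replicates 3, 4 and 5 the highest, so that wild type testes lay within and on both sides of the Rfx2-/- range. The means of 68.9 ± 19.96 CPM (SD, n = 5) and 55.0 ± 8.58 CPM (SD, n = 6) differed by a log2 fold change of -0.33 ± 0.19 (SE; 95% interval -0.74 to 0.09, adjusted p = 0.205 from edgeR). Limma gave -0.14, and leaving out both of wild type replicates 3 and 5 gave -0.05. The difference was larger with total counts (-0.513) and without wild type replicate 1 (-0.461, adjusted p = 0.0373 from edgeR).

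Meiob (ENSMUSG00000024155, chromosome 17 from 24804289 to 24839788, plus strand, 14 merged exons) had the highest fold change of the 8 genes. Replicates 1 to 5 of the wild type had 38.3, 56.7, 53.0, 67.3 and 56.7 CPM. The Rfx2-/- values were 48.4 CPM in replicate 7, 70.3 CPM in replicate 6, 83.0 CPM in replicate 8, 84.7 CPM in replicate 9, 102 CPM in replicate 10 and 83.3 CPM in replicate 11. Thus 5 of 6 Rfx2-/- mice exceeded every wild type mouse, and the remaining one, replicate 7, has the highest spermatid score of all. With means of 54.4 ± 10.5 CPM (SD, n = 5) and 78.6 ± 17.9 CPM (SD, n = 6), the log2 fold change was 0.53 ± 0.18 (SE; 95% interval 0.13 to 0.93, adjusted p = 0.0641 from edgeR). The ratio of Meiob to Hfm1 reads does not depend on how libraries are scaled, but the pair was chosen after its values were seen. As a description, this ratio was 0.22 to 0.285 in wild type mice, 0.24 in Rfx2-/- replicate 7 and 0.362 to 0.505 in the other Rfx2-/- mice.

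Hfm1 (ENSMUSG00000043410, chromosome 5 from 106840192 to 106926321, minus strand, 41 merged exons) was the least different of the 8. The wild type mice had 174, 199, 198, 237 and 203 CPM in replicates 1 to 5, and the Rfx2-/- mice had 194 CPM at the lowest, 202.5 at the median and 212 at the highest. The Rfx2-/- range lay inside the wild type range. The log2 fold change was 0.01 ± 0.07 (SE), from means of 202 ± 22.7 CPM (SD, n = 5) and 203 ± 6.00 CPM (SD, n = 6), and its 95% interval of -0.15 to 0.17 bounds the difference (adjusted p = 0.942 from edgeR). Its sign was negative under total counts, limma, the early prophase covariate and without wild type replicate 1 or Rfx2-/- replicate 8.

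Msh4 and Msh5, the 2 partners of the heterodimer that clamps recombination intermediates, had small differences of opposite sign. For Msh4 (ENSMUSG00000005493, chromosome 3 from 153857149 to 153906138, minus strand, 22 merged exons) the wild type replicates 1 to 5 had 38.2, 44.6, 39.6, 46.8 and 40.2 CPM, and the Rfx2-/- mice had 45.3, 46.0 and 52.1 CPM as lowest, median and highest. The highest Rfx2-/- value belonged to replicate 11, and wild type replicate 4 overlapped the others. The log2 fold change was 0.17 ± 0.07 (SE; 95% interval 0.02 to 0.32, adjusted p = 0.0884 from edgeR), with means of 41.9 ± 3.65 CPM (SD, n = 5) and 47.1 ± 2.53 CPM (SD, n = 6).

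Msh5 (ENSMUSG00000007035, chromosome 17 from 35028605 to 35046745, minus strand, 25 merged exons) is the only one of the 8 that the study lists among genes bound by RFX2 at the promoter. Its counts in wild type replicates 1 to 5 came to 46.0, 39.1, 56.3, 45.4 and 50.1 CPM, and the Rfx2-/- mice lay between 42.02 and 46.4 CPM around a median of 44.3 CPM. All 6 Rfx2-/- values lay within the wild type range. The means were 47.4 ± 6.34 CPM (SD, n = 5) and 44.3 ± 1.70 CPM (SD, n = 6), with a log2 fold change of -0.10 ± 0.08 (SE; 95% interval -0.28 to 0.08, adjusted p = 0.371 from edgeR). The sign turned with limma (0.05), with the pachytene covariate (0.07) and without both of wild type replicates 3 and 5 (0.03). There were 1.01 to 1.18 Msh4 reads for each Msh5 read in the Rfx2-/- mice and 0.703 to 1.14 in the wild type mice.

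Mlh3 (ENSMUSG00000021245, chromosome 12 from 85234520 to 85270599, minus strand, 13 merged exons), the endonuclease subunit of the crossover resolvase, had the smallest p of the 8 (0.00853 unadjusted). Among wild type mice its level was 103, 103, 84.3, 119 and 80.6 CPM in replicates 1 to 5, compared with 114, 119 and 131 CPM as the lowest, median and highest of the Rfx2-/- mice. Only wild type replicate 4 reached into the Rfx2-/- range, and replicates 3 and 5 were again the lowest. Means of 97.9 ± 15.5 CPM (SD, n = 5) and 121 ± 6.38 CPM (SD, n = 6) gave a log2 fold change of 0.30 ± 0.10 (SE; 95% interval 0.09 to 0.51, adjusted p = 0.0529 from edgeR), and 0.17 without both of wild type replicates 3 and 5.

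**Figure D1:**
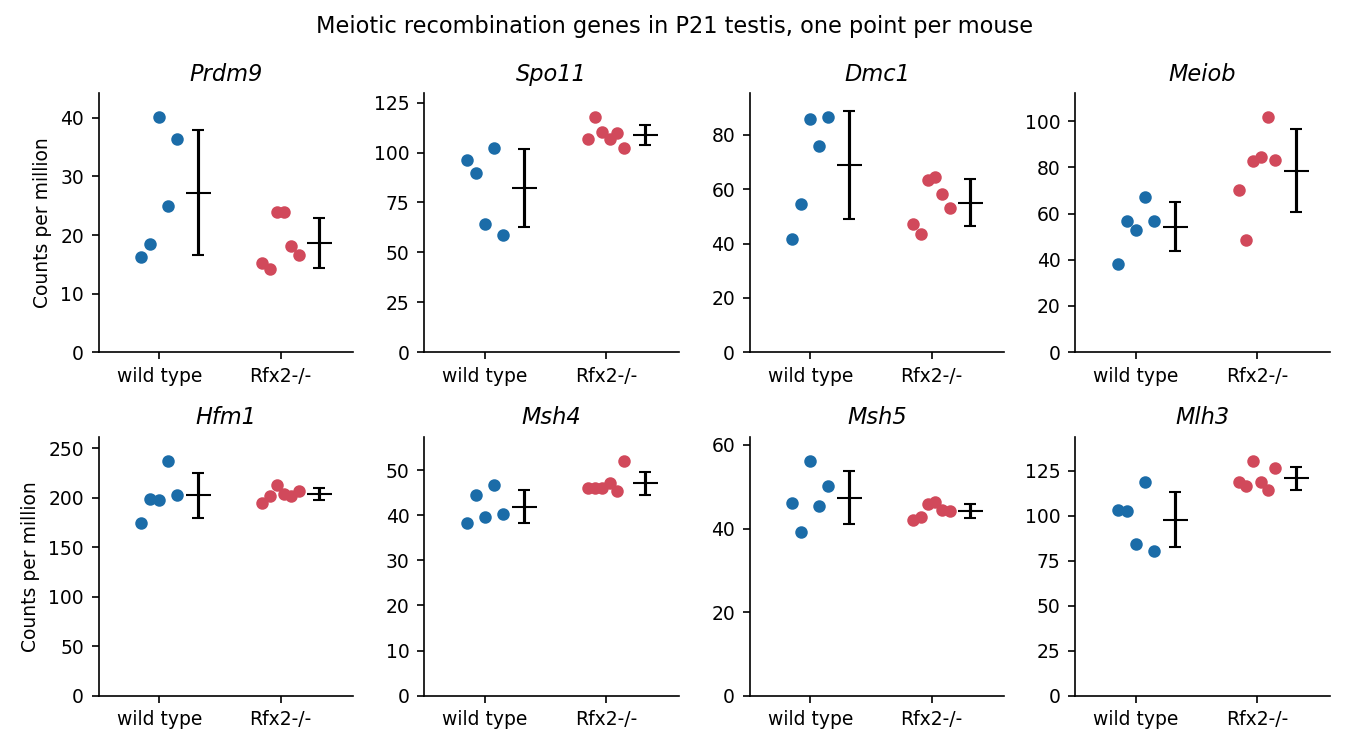
CPM (y axis, from 0) of the 8 genes in each mouse, with wild type in blue, Rfx2-/- in red and the mean ± SD beside each group in black (n = 5 and 6). The Rfx2-/- mice cluster more tightly than the wild type mice for every gene except Meiob, and Spo11 alone shows no overlap between the genotypes.

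The coefficient of variation was smaller among Rfx2-/- than wild type mice for 7 of the 8 genes, for example 4.73% against 23.8% for Spo11 and 2.96% against 11.2% for Hfm1, with Meiob (22.7% against 19.3%) as the exception. This difference in spread was not tested. The range of the spermatid score was also wider in wild type mice.

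Scaled to the length of the merged exons, Spo11 was the most abundant of the 8 transcripts in both genotypes, at 46.9 ± 11.1 CPM per kilobase of exon (RPKM) in wild type and 62.1 ± 2.94 RPKM in Rfx2-/- testis (SD, n = 5 and 6). Prdm9 was the least abundant, at 7.30 ± 2.85 and 5.01 ± 1.14 RPKM. In wild type the order was Spo11, Hfm1 (39.0), Dmc1 (31.1), Meiob (30.3), Mlh3 (17.6), Msh5 (16.3), Msh4 (11.3) and Prdm9, in mean RPKM, and the ranges of neighbors overlapped at every step except between Msh5 and Msh4. Among Rfx2-/- mice Meiob (43.7 RPKM) stood second, above Hfm1 (39.2 RPKM), in 5 of 6 mice. Its range overlapped that of Hfm1, and the range of Dmc1 (24.8 RPKM) overlapped that of Mlh3 (21.7 RPKM), while the other neighbors did not overlap. Msh5 followed at 15.2 RPKM and Msh4 at 12.7 RPKM.

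The mice were then placed along the round spermatid score, and each gene was fitted against the score together with genotype. Prdm9 fell by 0.24 ± 0.03 log2 units (SE) for each unit of the score (95% interval -0.30 to -0.17, adjusted p = 0.00011 from edgeR). Dmc1 fell by 0.19 ± 0.02 units (SE; 95% interval -0.23 to -0.14, adjusted p = 3.74e-05). Both calls held without each mouse in turn and without both of wild type replicates 3 and 5. The other slopes did not pass, at 0.08 for Spo11, 0.02 for Mlh3, -0.01 for Msh4, -0.03 for Hfm1, -0.05 for Msh5 and -0.11 for Meiob (adjusted p = 0.0594 to 0.77). Spo11 passed as rising when wild type replicate 4 was left out (0.095, adjusted p = 0.00343 from edgeR), and its slope was 0.000 without both of wild type replicates 3 and 5.

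**Figure D2:**
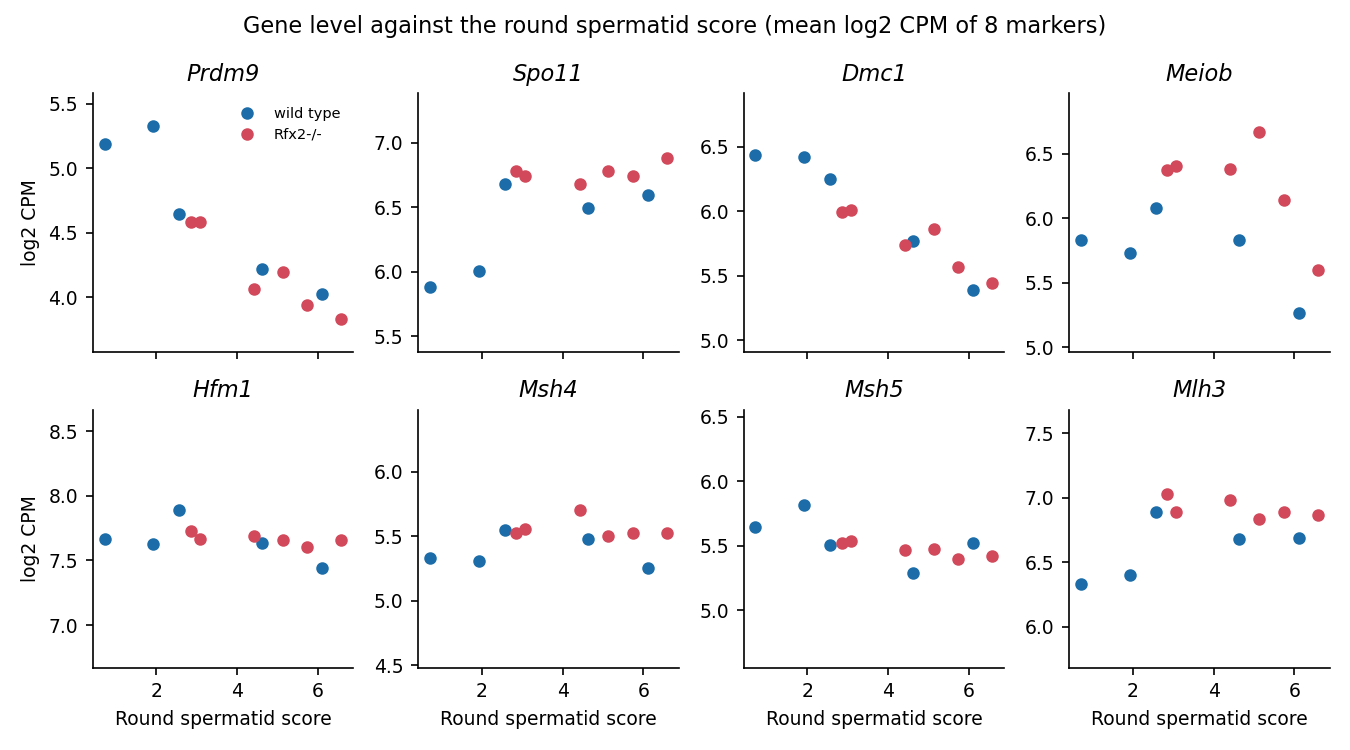
The log2 CPM of each gene (y axis, each panel spanning 2 log2 units) against the round spermatid score of the same mouse (x axis, mean log2 CPM of 8 markers), wild type in blue and Rfx2-/- in red. Prdm9 and Dmc1 descend along the score in both genotypes, Spo11 and Mlh3 are low in the 2 wild type mice with the lowest scores and level beyond them, and Meiob lies higher in Rfx2-/- than in wild type mice of a similar score.

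Library scaling cancels in ratios of raw reads, given here as a description for pairs chosen after their values were seen. There were 1.62, 1.6, 4.10, 4.86 and 5.95 Spo11 reads per Prdm9 read in wild type replicates 5, 3, 4, 2 and 1, listed by increasing spermatid score. In the Rfx2-/- mice the ratio was 4.47 to 8.35, with the highest in replicate 7. Mlh3 reads per Dmc1 read went from 0.931 in wild type replicate 5 to 2.47 in wild type replicate 1, and from 1.84 to 2.68 in the Rfx2-/- mice. Neither ratio followed the score in strict order, as wild type replicates 5 and 3 were nearly equal for the first and Rfx2-/- replicate 8 (2.06) lay above replicate 10 (1.96) for the second, and the genotypes overlapped for both.

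With the spermatid score in the fit, the genotype difference of Prdm9 was -0.155 (95% interval -0.39 to 0.08) and that of Dmc1 -0.02 (95% interval -0.18 to 0.14), where the intervals without the score reached -1.10 and -0.74. The difference of Meiob became 0.69 (95% interval 0.33 to 1.04, adjusted p = 0.0164 from edgeR), which did not pass the threshold. Those of Spo11 (0.30), Mlh3 (0.27), Msh4 (0.18), Hfm1 (0.06) and Msh5 (-0.03) did not pass either. The score rests on spermatid genes, and its mean was 1.44 higher in Rfx2-/- mice (exact permutation p = 0.219). Differences by score and by genotype are therefore not fully separate in this fit. Whether the score itself depends on RFX2 was not tested. When each genotype was given a slope of its own, a fit added once the data had been seen, the test of a difference between the slopes was passed by no member (adjusted p = 0.572 to 0.976 from edgeR) and by 0.0127% of all tested genes. The 95% interval of the difference was -0.10 to 0.18 for Prdm9 and -0.02 to 0.15 for Dmc1.

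**Figure D3:**
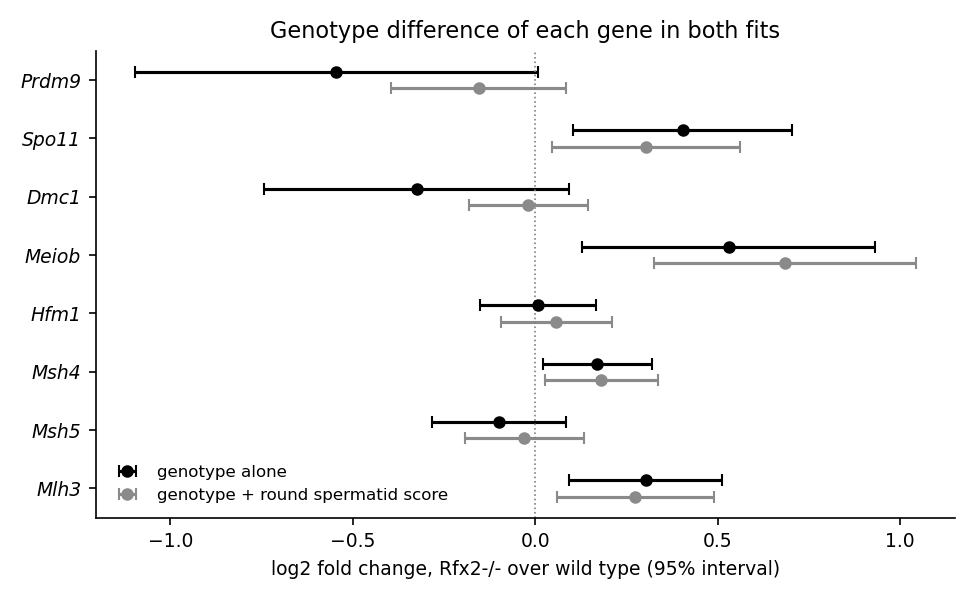
Log2 fold change of Rfx2-/- over wild type (x axis) for the 8 genes, with 95% intervals, from the fit on genotype alone (black) and from the fit that also holds the round spermatid score (gray). The intervals of Prdm9 and Dmc1 narrow and move toward 0 with the score, while Meiob moves away from 0.

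Because the pachytene score differed between genotypes, the members were also fitted against it, again after seeing the data. Spo11 rose by 0.585 ± 0.05 log2 units (SE) per unit of the pachytene score (adjusted p = 4.28e-06 from edgeR), and Mlh3 rose by 0.335 ± 0.07 units (SE, adjusted p = 0.00315). Prdm9 fell by 0.87 ± 0.21 units (SE, adjusted p = 0.0051). Of all tested genes 12.9% fell and 23.4% rose with this score. The call of Prdm9 was lost without any 1 of wild type replicates 1, 2, 3 and 5 (adjusted p = 0.015 to 0.0252 from edgeR). That of Mlh3 was lost without wild type replicate 3 (adjusted p = 0.0183), without replicate 5 (adjusted p = 0.0375) and with total counts (adjusted p = 0.264), and that of Spo11 held without each single mouse. Wild type replicates 3 and 5 have the lowest scores, and without both no member passed (Spo11 0.61, adjusted p = 0.189, Mlh3 -0.22, adjusted p = 0.761, and Prdm9 -1.91, adjusted p = 0.349 from edgeR). In the fit with genotype and the pachytene score, the genotype differences were 0.03 for Spo11, 0.08 for Mlh3, 0.13 for Prdm9, 0.09 for Dmc1 and 0.58 for Meiob (adjusted p = 0.242 for Meiob). The pachytene scores of the genotypes did not overlap, so score and genotype cannot be told apart in this fit. The part of the pachytene difference in these results was not tested further.

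Pairs of members followed each other to different extents across the 11 mice, which share library scaling and the spermatid marker gradient. Pearson's r of log2 CPM was 0.95 for Prdm9 and Dmc1, and 0.944 after the mean of each genotype was subtracted. It was 0.934 for Spo11 and Mlh3, or 0.867 within genotypes, and -0.80 for Prdm9 and Spo11. The MSH4 and MSH5 genes, whose products act as 1 complex, had r = -0.53. Outside the set, the genes with the highest r over the 11 mice were Rock2, Nmt2 and Nrip3 for Prdm9 (0.986 to 0.988), Ntpcr, Zfp91 and Rai14 for Spo11 (0.993 to 0.994) and Tktl1, Mettl14 and Tex16 for Dmc1 (0.985 to 0.989). For Mlh3 they were L3mbtl2, Tmem18 and Zfp346 (0.979 to 0.981), for Msh4 Piwil2, Cyp2r1 and Dnajc11 (0.908 to 0.956), for Msh5 Per3, Recql4 and Myo7a (0.942 to 0.943) and for Hfm1 Orc4, Tdp2 and Cd164 (0.937 to 0.944). For Meiob they were Ap1b1, Ddx47 and Pank4 (0.922 to 0.930).

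Among 42 other recombination genes that were tested, edgeR called none lower or higher at the same threshold. DESeq2 called 1 lower and 3 higher and limma 1 and 2. The shares of all tested genes that these tools called are not given here, so these counts have no background. Before adjustment edgeR had 3 lower and 9 higher at p up to 0.05, where 23.7% and 18.1% of all tested genes were. The median log2 fold change was -0.01, beside 0.09 for the 8 members and -0.05 for all tested genes. With the adjusted p relaxed to 0.05, edgeR had 1 lower and 3 higher, against 8.78% lower and 6.15% higher among all tested genes, so that the higher count is near the background. Rpa3, a small subunit of the RPA complex, had 13.3 ± 1.68 CPM in wild type and 9.46 ± 1.002 CPM in the knockouts (log2 fold change -0.49, adjusted p = 0.0214 from edgeR). Rpa1, the large subunit of the same complex, had 246 ± 76.2 and 391 ± 27.1 CPM (log2 fold change 0.67, adjusted p = 0.0385 from edgeR). Slx4, a scaffold of structure-specific nucleases, had 222 ± 72.4 and 359 ± 35.3 CPM (log2 fold change 0.69, adjusted p = 0.0410 from edgeR), and the third of the higher genes was Nbn, of the MRN complex (0.235, adjusted p = 0.0372), named after its values were seen.

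By role, the 7 genes of break formation and hotspots ran from -0.51 for Mei4 to 0.02 for Ccdc36 (IHO1), and 6 of the 7 fell with the spermatid score, Ccdc36 and Mei4 among them (slopes -0.06 and -0.19). Of the 5 genes of end processing and damage signaling, which ran from -0.53 for Atm, the damage kinase, to 0.31 for the nuclease gene Mre11a, 3 fell with the score and 1 rose. The 15 genes of strand invasion ran from Rpa3 to Rpa1, and 5 fell and 1 rose. Of 8 crossover designation genes, from Tex11 (-0.48) to Prr19 (0.49), 3 fell and none rose, and of 7 resolution genes, from Pms2 (-0.31) to Slx4, 2 fell and 2 rose. In all, 19 of the 42 fell and 4 rose by edgeR's test, beside 15.6% and 20.2% of all tested genes, with a median slope of -0.06, beside -0.04 for the members and 0.005 for all tested genes. When wild type replicate 1 was left out, 7 fell and 2 rose. Leaving out wild type replicate 5 gave 11 falling and 2 rising, and leaving out wild type replicate 4 gave 20 and 8. The shares of all tested genes in these refits are not given here, so these changes have no background beside them.

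**Figure D4:**
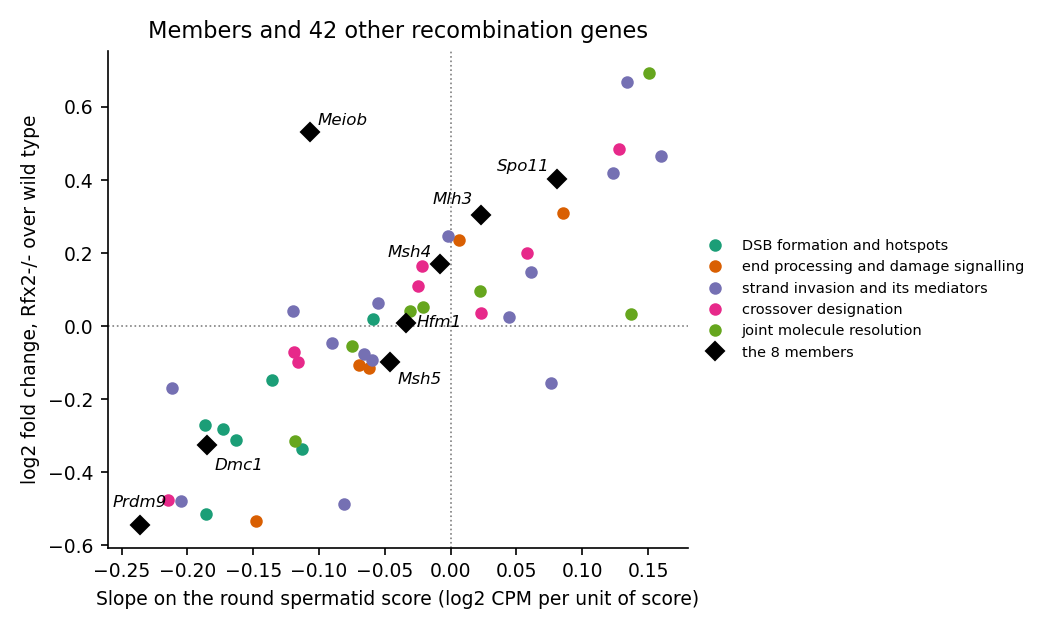
Log2 fold change of Rfx2-/- over wild type (y axis) against the slope on the round spermatid score (x axis, log2 CPM per unit of score) for the 8 members (black diamonds, named) and 42 other recombination genes (dots, colored by role). Most genes lie along a diagonal from Prdm9 at the lower left to Slx4 at the upper right, and Meiob lies above it with a negative slope and a fold change of 0.53. The axes are not independent, because the fold change is from genotype alone and the mean score was 1.44 higher in Rfx2-/- mice.

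Promoter windows from RefSeq (GRCm38.p6), from 250 bases before the start site to 50 after it, were at hand for 6 of the 8 genes, with 2 windows each for Prdm9 and Mlh3. They were searched on both strands for the X box, the site bound by RFX factors, spelled GTNNCC and NGNAAC with 0 to 3 bases between, and for CNCCTCAG, a motif of the meiotic regulator STRA8. No window of a member held the X box, which 5.25% of 32851 windows held, and a site written otherwise or placed elsewhere would not have been seen. The CNCCTCAG motif, in 7.94% of all windows, was in those of Prdm9, Hfm1 and Msh5. Shown here are the windows of Prdm9 (chr17:15564305-15564604) and Dmc1 (chr15:79605060-79605359), the 2 genes that fell with the spermatid score, and of Msh5 (chr17:35046573-35046872), the gene on the list of bound promoters. All are on the minus strand of the chromosome, written 5′ to 3′ along the gene, with matches to CNCCTCAG or its reverse complement in capitals.
Prdm9: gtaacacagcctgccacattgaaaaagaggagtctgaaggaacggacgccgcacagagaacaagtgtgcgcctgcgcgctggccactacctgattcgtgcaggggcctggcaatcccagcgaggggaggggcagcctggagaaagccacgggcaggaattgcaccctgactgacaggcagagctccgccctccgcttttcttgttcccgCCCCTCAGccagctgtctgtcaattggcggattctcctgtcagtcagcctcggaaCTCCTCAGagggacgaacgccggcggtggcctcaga
Dmc1: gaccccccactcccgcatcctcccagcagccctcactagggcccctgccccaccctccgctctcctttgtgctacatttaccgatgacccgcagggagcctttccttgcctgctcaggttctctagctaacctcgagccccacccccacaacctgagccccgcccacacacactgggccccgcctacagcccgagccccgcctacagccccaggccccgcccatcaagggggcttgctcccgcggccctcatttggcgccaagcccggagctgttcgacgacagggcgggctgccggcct
Msh5: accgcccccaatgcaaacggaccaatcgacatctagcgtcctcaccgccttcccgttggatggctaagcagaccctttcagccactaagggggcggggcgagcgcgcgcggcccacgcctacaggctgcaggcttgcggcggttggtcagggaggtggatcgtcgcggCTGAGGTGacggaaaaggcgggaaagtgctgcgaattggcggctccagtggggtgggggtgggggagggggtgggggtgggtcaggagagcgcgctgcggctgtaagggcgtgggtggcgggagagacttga

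Counting the start site as 0, the matches in this Prdm9 window begin at -41 and at 14, both on the strand shown, and the other Prdm9 window has none. The Msh5 match covers -82 to -75 on the opposite strand. Hfm1 has 1 match on each strand, beginning at -66 and at -6. Dmc1, Msh4 and Mlh3 have none in these windows. The G and C content of the 3 windows was 61.7% for Prdm9, 69.0% for Dmc1 and 67.3% for Msh5. A match is only a run of letters, and binding was not measured in the counts.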

How the data were processed

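Testis RNA of 5 wild type and 6 Rfx2-/- mice at P21 was analysed as gene counts. According to the authors' methods and the submitters' processing notes, TruSeq libraries were sequenced as single reads (CASAVA 1.8.2), mapped to GRCm38 (STAR 2.4) and counted with featureCounts 1.4.6 on the merged exons of protein coding isoforms, and reads with several positions or on exons of different genes were left out. The table deposited by the authors gives unnormalized counts for 23074 genes. Use of strand in counting is not given in the sources used here, and no exon of the 8 genes overlaps one of another gene. Gene IDs were matched to GENCODE M21 (22293 matched), and 2 of 44 other recombination genes, Ankrd31 and Spata22, were not matched and were not used here.

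In edgeR 4.0.16 (R 4.3.3), filterByExpr by genotype left 15745 genes, which were scaled by TMM (factors 0.894 to 1.18) and tested with glmQLFit and glmQLFTest on genotype. A gene was called at an adjusted p up to 0.01. A second fit added the round spermatid score and tested its slope. Scores are means of log2 CPM with a prior count of 2, and were compared between genotypes by two-sided exact permutation tests over 462 splits. Counting errors are Poisson and cover counting alone. Alternatives used DESeq2 1.42.0, limma 3.58.1, other scalings, filters, covariates and thresholds, and each mouse left out. The scripts were tried on simulated counts. Python 3.11.15 with pandas 2.3.3 and matplotlib 3.10.9 made tables and figures.

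The 8 genes, the other recombination genes and the markers were chosen with earlier results of these data known. Named beside the 8 members are Rfx2, the highest and lowest fold change of each role group, and the 3 genes with the highest r for each member. Nbn was added after its values were seen. P-values measure the spread between mice of 1 experiment.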

Additional observations from a re-analysis of the deposited data

Results flagged for a closer look

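Of 38 sets of values (the 8 genes and Rfx2, 9 marker scores and the total count, each within a genotype), 1 held a mouse that stood apart from the rest of its group by Dixon's ratio, where chance gives about 1 in 20. Msh4 in Rfx2-/- replicate 11 was 52.1 CPM, against 45.3 to 47.1 CPM in the other 5 Rfx2-/- mice (Dixon's ratio 0.730). Without this mouse the log2 fold change of Msh4 was 0.14.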

How the results depend on the processing

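No member was called lower or higher under any scaling, filter, tool, covariate or left-out mouse, and 1 (Mlh3) was higher at an unadjusted p up to 0.01. Of the other recombination genes, 1 was called lower with DESeq2, limma, the round spermatid covariate, the pachytene covariate, an adjusted p up to 0.05 and an unadjusted p up to 0.01, and 0 to 1 with a mouse left out (1 without wild type replicate 1). In the other direction the count was 3 with DESeq2 and with both relaxed thresholds, 2 with limma and 1 without both of wild type replicates 3 and 5. Shares of all tested genes are given above for edgeR's main fit alone. With total counts the median over all genes went from -0.05 to -0.22 (log2), and Hfm1 to -0.158. Hfm1 was -0.022 with limma, -0.026 with the early prophase covariate and between -0.042 and 0.072 with a mouse left out. Msh5 was 0.053 with limma, 0.073 with the pachytene covariate and 0.033 without both of wild type replicates 3 and 5. Under the pachytene covariate Prdm9 was 0.129 and Dmc1 0.087.

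Both falling slopes were kept in every fit, and total counts added Hfm1 (-0.09, adjusted p = 0.000934 from edgeR) for 3 members falling. Members rising numbered 0 to 1 with a mouse left out. The falling count of the other recombination genes ran from 7 to 20 and the rising count from 2 to 8 with a mouse left out, and 2 rose with total counts. No share of all tested genes is given for these refits. The spermatid slope of Mlh3 was -0.026 with total counts, -0.047 without both of wild type replicates 3 and 5 and -0.006 to 0.037 with a mouse left out. That of Msh4 ran from -0.018 to 0.013, and that of Spo11 was 0.000 without both mice. With the pachytene score, 0 to 2 members fell and 1 to 2 rose with a mouse left out. Total counts gave 2 falling and 1 rising. Without both mice 0 fell and 0 rose, and Mlh3 was -0.22.

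The early prophase score difference was -0.13 with total counts. That of peritubular cells ran from -0.128 to 0.067, of pachytene cells from 0.52 to 0.83, of Sertoli cells from -0.42 to -0.23 and of macrophages from -0.53 to -0.32 with a mouse left out. The pachytene difference missed 0.05 after adjustment without any 1 Rfx2-/- mouse (0.0714, the smallest that 5 against 5 allows over 9 lists). The cause of these changes was not tested. No paired analysis was made, because the labels do not give the litter of a mouse. Any littermates among these mice are therefore treated as unrelated. With 5 and 6 mice, the intervals of Prdm9 and Dmc1 leave changes of the size of their own fold changes undecided.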
